A study of Mus musculus with 20 samples.

Results

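Translation initiation and elongation factors are the proteins that place a ribosome on the start codon of an mRNA and then move it along the message. Their genes were taken here as all gene symbols beginning with Eif or Eef and a digit, leaving out the Argonaute aliases Eif2c1 to Eif2c4, the oocyte eIF4E paralogue Eif4e1b and the eIF4E transporter Eif4enif1. The rule gave 61 of the 23309 symbols in the files, and 67 before those exclusions. The rule uses symbols alone and no measured value, but it was chosen with earlier results of these data known.

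The RNA-seq libraries come from oocytes and embryos of ICR mice in 2 experiments, all collected from superovulated females (PMSG followed by hCG) aged 21 to 23 days, with 60 oocytes or embryos pooled per sample. In the Btg4 experiment, Btg4-/- and wild-type samples were taken at the GV stage (germinal vesicle, the immature oocyte arrested in the first meiotic prophase), at MII (the mature oocyte arrested at metaphase of the second meiosis), as zygotes and as 2-cell embryos, with 2 libraries in each of the 8 groups. The embryos were obtained by mating, and the genotype of the fathers and the structure of the Btg4 allele are not given in the labels. In the Erk experiment, Erk-/- and wild-type GV and MII oocytes gave 1 library each. The labels name neither the Erk gene or allele nor a Cre driver. The labels do not tie the 2 libraries of a group to separate animals. The p-values therefore cover the spread between the libraries alone, and that spread may be technical.

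In the initiation pathway the cap-binding complex eIF4F (eIF4E, the eIF4G scaffold and the eIF4A helicase) recruits an mRNA to the small ribosomal subunit. That subunit carries eIF1, eIF1A, eIF3 and the eIF2 complex, which brings the initiator tRNA. eIF5 and eIF5B then act at start-codon recognition and subunit joining, eIF2B recharges eIF2 with GTP, and eEF1 and eEF2 drive elongation. A growing oocyte stores mRNA, transcription stops before meiosis resumes, and during maturation one set of stored mRNAs is deadenylated and lost while another is polyadenylated and translated. BTG4 is an adaptor that brings the CCR4-NOT deadenylase to maternal mRNAs. The mouse embryo starts its own main transcription at the 2-cell stage. The comparisons below ask how mRNA levels of the translation factors changed across these stages and how they differed in samples labelled Btg4-/- or Erk-/-.

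Levels are gene FPKM (fragments per kilobase of transcript, scaled to the mapped fragments of the library), so they are shares of a library, and less of one mRNA and more of all others cannot be told apart. In pooled samples, fewer cells of a type and less RNA per cell cannot be told apart either. The deposited intervals imply a depth of 1840000 to 3740000 fragments for each Btg4-experiment library, and of 4890000 to 6650000 for each Erk-experiment library. At least 1 FPKM was reached by 8385 to 10058 symbols per library in the first set and by 7265 to 9253 in the second, with the wild-type MII library lowest. The 2 libraries of a group correlated with a Pearson r of 0.925 to 0.973 over genes (genes are not replicates). The targeted gene Btg4 stood at 1979.8 and 1881 FPKM in labelled Btg4-/- GV oocytes, against 1449.6 and 1673 FPKM in wild type, and at 172 and 191 FPKM in labelled Btg4-/- MII oocytes, against 415 and 406 FPKM in wild type. In zygotes it had 139 and 164 FPKM in labelled Btg4-/- zygotes, against 610.3 and 559.5 FPKM in wild type, and at the 2-cell stage 3514 and 3632 FPKM in labelled Btg4-/- 2-cell embryos, against 1147 and 964 FPKM in wild type. Whether part of the gene is missing cannot be read from one FPKM per gene. Btg4 mRNA was below wild type at MII and in zygotes and above it at GV and at the 2-cell stage, so the groups are called by their labels. The 10 oocyte markers were all at 1 FPKM or more in every library except Figla, which was at 0 in wild-type 2-cell embryos. Of 5 sperm genes, Prm1, Tnp1 and Tnp2 were listed at 0 in every library, the protamine gene Prm2 lay at 0 to 13.6 FPKM and Odf1 at 0 to 3.0 FPKM.

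Of the 61 genes, 50 to 56 reached 1 FPKM per Btg4-experiment library and 42 to 52 per Erk-experiment library. Together they made up 1.164% to 1.802% of the summed FPKM in the 16 Btg4-experiment libraries and 0.934% to 1.245% in the 4 Erk-experiment libraries. Per transcript length, the most abundant factor mRNA of the wild-type GV oocyte was Eif6, which encodes the factor that keeps free large ribosomal subunits apart from small ones, at 1173 and 1132 FPKM. Eef1a1, the GTPase that delivers aminoacyl-tRNA to the ribosome, followed at 649 and 607 FPKM. Eef1e1, a component of the multi-tRNA synthetase complex, had 398 and 369 FPKM, Eif5a, the hypusinated elongation factor, had 391 and 382 FPKM, and Eif4a1, the main eIF4A helicase, had 374 and 356 FPKM. The ranges of Eef1e1 and Eif5a overlapped. Eef1a2, the neuron and muscle paralogue of Eef1a1, was listed at 0 in all 20 libraries, and Eif2s3y, the Y-linked eIF2 gamma gene, reached at most 0.117 FPKM.

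Tests used log2(FPKM + 1) and limma, with Benjamini-Hochberg adjustment over the 12311 genes whose mean reached 1 FPKM in at least 1 of the 8 groups, and a call means an adjusted p under 0.05. Of the 61 factors 57 entered, and Eef1a2, Eif2s3y, Eif4ebp3 and Eif2ak2 did not. A gene could enter through the one group in which it is high. Where libraries of called genes are said not to overlap, the genes were picked by these same values, so this is a description. With 2 libraries per group a call itself makes it likely, and it says nothing particular about the factors. The share of all called genes without overlap was not counted. Eif3j1 and Eif3j2 share a locus on chromosome 2 with near-identical sequence, and Cufflinks marked its Eif3j1 estimate as low data. Their separate values switched between libraries of one group, so both are uncertain, and their sum is given where either would be named. Eif1a and Eif1ax are close copies whose reads may also be shared.

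Maternal mRNAs with a cytoplasmic polyadenylation element, bound by CPEB1, can gain poly(A) tail during maturation, so the last 100 bases of the 3' UTRs were searched for TTTTAT and TTTTAAT on the sense strand (the motifs do not overlap each other). Among the 56 tested factors with a matching GENCODE M21 transcript on GRCm38, 5 held one (8.9%), against 18.9% of the 11016 tested genes with a transcript. They were Eef1a1, Eif1a, Eif1ax, Eif3m and Eif4e3. The sites of 4 of them are printed with 30 bases each, 5' to 3' as DNA of the transcript strand. They are shown because Eif3m is the factor that differed most at MII, Eif1ax and Eef1a1 also stood above wild type there, and Eif4e3 stood below it. Capitals mark the motif.
Eef1a1, chromosome 9, minus strand: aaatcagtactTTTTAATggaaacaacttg
Eif1ax, chromosome X, plus strand: attcagtggatgTTTTATgctgcacaaata
Eif3m, chromosome 2, minus strand: agatacctgaatTTTTATgaaaatgatttt
Eif4e3, chromosome 6, minus strand: attttgagaaaaTTTTATttttgaacttta
The motif of Eif3m lay in a 3' UTR of only 65 bases, that of Eef1a1 in 285 bases and that of Eif1ax in 4515 bases. A poly(A) signal was found in the last 40 bases of the Eef1a1 and Eif4e3 transcripts and not of the Eif1ax and Eif3m transcripts. Whether these annotated ends are the ones used in oocytes was not tested. Eef1a1, Eif1ax and Eif3m mRNA fell in wild-type maturation and Eif4e3 mRNA rose, so a motif in this window went with either direction. A match is a description of letters and not of a bound site.

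In wild-type maturation the factor mRNAs split into a larger set that fell and a smaller one that rose. At MII against GV, 29 of 57 fell and 16 rose, where 28.5% of all 12311 genes fell and 25.2% rose, and the median log2 change was -0.57 for the factors and -0.02 for all genes. The falling genes included the main elongation factors, Eif6 and 8 eIF3 subunits. Rising ones included the beta subunit of eIF2 and the factors of start-codon recognition and subunit joining. Of the 14 eIF3 genes, 1 rose, 8 fell and 5 did not pass. The gene that rose was Eif3j2, which is uncertain because its reads are not told apart from those of Eif3j1. Of the 7 tested elongation genes, 1 rose, 5 fell and 1 did not pass. This group, here and below, holds all tested Eef symbols. It therefore includes Eef1e1 of the multi-tRNA synthetase complex and the eEF2 kinase gene Eef2k. Of the 7 start-codon factors, 4 rose, 2 fell and 1 did not pass, and of the 11 cap-binding and helicase genes, 5 rose, 5 fell and 1 did not pass.

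The largest rise belonged to Eif2s2 (mm9 chromosome 2, 154697145 to 154718642), which encodes eIF2 beta, the subunit that binds the exchange factor eIF2B and eIF5. It had 1021 and 1021 FPKM at MII, against 32.9 and 29.6 FPKM at GV, a 32.7-fold higher mean (log2 change 4.99, SE 0.14, adjusted p = 4.65e-11). Eif5b, the GTPase of subunit joining (chromosome 1, 38054854 to 38112424), had 14.9 and 16.3 FPKM at MII and 0.719 and 0.658 FPKM at GV (log2 change 3.29, SE 0.21, adjusted p = 4.07e-08). Eif5, the GTPase activator of eIF2, had 130.4 and 175 FPKM at MII and 22.5 and 24.4 FPKM at GV (log2 change 2.64, SE 0.21, adjusted p = 2.89e-07). In each of these genes both MII libraries lay above both GV libraries. Eif1b, a close relative of the start-site selection factor Eif1, had 671 and 661 FPKM at MII and 176 and 178 FPKM at GV (log2 change 1.91, SE 0.16, adjusted p = 4.3e-07). The rise was shared by 2 of the most abundant genes. Eif4a1 had 999 and 1058 FPKM at MII and 374 and 356 FPKM at GV (log2 change 1.49, SE 0.089, adjusted p = 2.64e-08), and Eif5a had 1068 and 1227 FPKM at MII and 391 and 382 FPKM at GV (log2 change 1.56, SE 0.11, adjusted p = 1.39e-07). Eif3j1 and Eif3j2 summed to 91.9 and 162 FPKM at MII, against 4.89 and 5.81 FPKM at GV. Eif3i, the most abundant eIF3 mRNA, had 219.6 and 223 FPKM at MII and 187 and 179 FPKM at GV and did not pass (log2 change 0.28, adjusted p = 0.105), but passed as higher with quantile normalization (0.68, adjusted p = 0.000742) and in a fit on these libraries alone (adjusted p = 0.032). Summed levels of 13 granulosa and cumulus cell markers were 7.41 to 11.8 FPKM in wild-type MII libraries, with 2 of 13 at 1 FPKM or more in both and Foxl2, Amh, Amhr2, Inhbb, Has2 and Hsd17b1 at 0, against 42.2 to 50.5 FPKM and 7 of 13 in wild-type GV libraries. The 6 blood markers summed to 50.3 to 84.96 FPKM in wild-type MII libraries, with 2 of 6 at 1 FPKM or more in both, against 0.74 to 2.45 FPKM and 0 of 6 in wild-type GV libraries, with Ptprc at 0 in both groups. The part of either list in the result was not tested.

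The largest fall was that of Eif3l, an eIF3 subunit, at 2.69 and 3.01 FPKM at MII, against 85.9 and 88.03 FPKM at GV (log2 change -4.51, SE 0.34, adjusted p = 2.02e-07). Eif6 (chromosome 2, 155645572 to 155652661) had a log2 change nearly as large and a far higher level at GV. It had 62.3 and 64.7 FPKM at MII, against 1173 and 1132 FPKM at GV, an 18.1-fold lower mean (log2 change -4.16, SE 0.13, adjusted p = 1.14e-10). Eif3g, the RNA-binding eIF3 subunit, had 10.2 and 6.27 FPKM at MII and 125 and 106 FPKM at GV (log2 change -3.69, SE 0.38, adjusted p = 3.72e-06). Eif4h, a cofactor of the eIF4A helicase, had 13.6 and 8.14 FPKM at MII and 132 and 124 FPKM at GV (log2 change -3.48, SE 0.19, adjusted p = 1.37e-08). Eef1g, the gamma subunit of the eEF1B exchange factor, had 5.36 and 1.98 FPKM at MII and 38.3 and 37.5 FPKM at GV (log2 change -3.16, SE 0.44, adjusted p = 4.81e-05). Eef1a1 fell to 156 and 160.4 FPKM, against 649 and 607 FPKM at GV (log2 change -1.98, SE 0.091, adjusted p = 2.72e-09). None of these groups overlapped. Eif4ebp1, an inhibitor that sequesters eIF4E, had 0.944 and 1.94 FPKM at MII and 5.66 and 6.57 FPKM at GV (log2 change -1.57, SE 0.53, adjusted p = 0.023), and this call was lost without wild-type GV library 1 or 2 or wild-type MII library 1 (adjusted p = 0.0675, 0.101 and 0.138).

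At GV, before maturation begins, few factor mRNAs differed in the samples labelled Btg4-/-. Only 2 of 57 were higher and 6 lower, where 1.45% of all genes were higher and 6.46% lower, with a median of -0.14 for the factors and -0.12 for all genes. The 2 higher were Eif2s2 (53.2 and 41.5 FPKM in labelled Btg4-/- GV oocytes, against 32.9 and 29.6 FPKM in wild type; log2 change 0.57, SE 0.14, adjusted p = 0.0227) and the cap-binding protein gene Eif4e (97.6 and 87.9 FPKM in labelled Btg4-/- GV oocytes, against 62.3 and 63.5 FPKM in wild type; log2 change 0.55, SE 0.11, adjusted p = 0.0108). Eif2ak3, which encodes the endoplasmic reticulum stress kinase PERK that phosphorylates eIF2 alpha, was the lowest relative to wild type, at 1.76 and 1.31 FPKM in labelled Btg4-/- GV oocytes, against 6.02 and 7.29 FPKM in wild type (log2 change -1.59, SE 0.25, adjusted p = 0.00303). Eif2d, which can place initiator tRNA without eIF2, had 11.6 and 8.13 FPKM in labelled Btg4-/- GV oocytes, against 23.9 and 22.2 FPKM in wild type (log2 change -1.16, SE 0.17, adjusted p = 0.00218). The other lower genes were Eef2k, the kinase that inhibits eEF2 (log2 change -0.83, SE 0.19, adjusted p = 0.0222), Eif1b (log2 change -0.77, SE 0.16, adjusted p = 0.0107), Eif4a1 (log2 change -0.40, SE 0.089, adjusted p = 0.0169) and Eef1a1 (log2 change -0.38, SE 0.091, adjusted p = 0.0248). Eif3i, Eif5a and Eif4ebp1 did not pass (log2 changes -0.12, -0.25 and 0.15). In all of the 8 that passed, both labelled Btg4-/- libraries lay on one side of both wild-type libraries, which such a call itself makes likely.

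These GV calls were fragile. Median-of-ratios scaling moves the median of all genes at GV to 0. The split was then 7 higher and 2 lower in place of 2 and 6, with Eef2k, Eif1b, Eif4a1 and Eef1a1 no longer past the threshold. The split of all genes moved as well, from 178 higher and 795 lower to 443 and 388. A limma fit on the GV libraries alone called 0 of all genes in either direction, and so 0 factors. In that fit 9 factors were higher and 15 lower at an unadjusted p under 0.05. The share of all genes past an unadjusted threshold was not counted, here or in the fits below. Such counts therefore cannot tell the factors from all genes. Leaving out labelled Btg4-/- library 1, wild-type library 1 or wild-type library 2 left 0 higher in limma (3, 3 and 4 at an unadjusted p under 0.05), and leaving out labelled Btg4-/- library 2, wild-type library 1 or wild-type library 2 left 2 lower. The 13 granulosa and cumulus markers summed to 65.8 to 73.8 FPKM in labelled Btg4-/- GV libraries, with 6 of 13 at 1 FPKM or more in both and Ptx3 and Tnfaip6 at 0, against 42.2 to 50.5 FPKM and 7 of 13 in wild type, where Has2 was also at 0. The 5 sperm genes summed to 10.5 to 13.2 FPKM in labelled Btg4-/- GV libraries, all of it Prm2, against 1.9 to 4.4 FPKM in wild type, with 1 of 5 at 1 FPKM or more in both groups. The 6 blood markers summed to 2.11 to 3.46 FPKM, with 1 of 6 at 1 FPKM or more, against 0.74 to 2.45 FPKM and 0 of 6 in wild type. The part of these lists in the result was not tested.

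**Figure D1:**
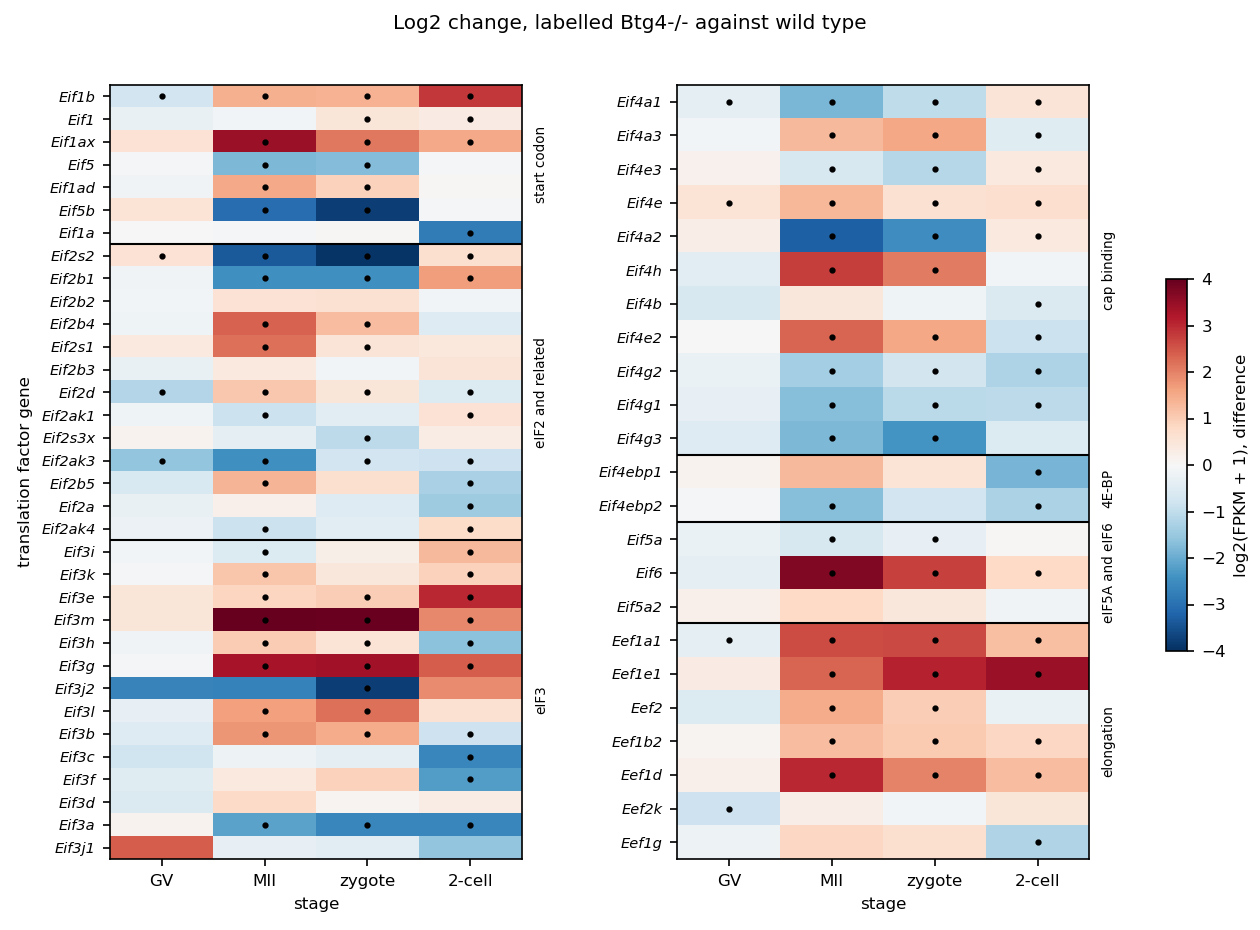
Log2 change, labelled Btg4-/- against wild type, of the 57 tested translation factor genes (rows, in 7 role groups) at 4 stages (columns), on log2(FPKM + 1), with 2 libraries per group; colours stop at 4 and -4, and dots mark an adjusted p under 0.05. Few dots stand at GV, where 2 were higher and 6 lower, and most genes have one at MII, where 24 were higher and 17 lower; Eif3j1 and Eif3j2 are uncertain.

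At MII the samples labelled Btg4-/- differed from wild type in most factor mRNAs, and in both directions. Of 57 genes, 24 were higher and 17 lower, where 29.1% of all genes were higher and 23.3% lower, and the median log2 change was 0.57 for the factors and 0.09 for all genes. Most elongation factors, eIF6 and most called eIF3 subunits were higher. The helicases Eif4a1 and Eif4a2, the eIF4G scaffolds, the eIF2 beta gene and the joining factors Eif5 and Eif5b were lower. Summed levels of 6 blood markers were 0 to 1.53 FPKM in labelled Btg4-/- MII libraries, with 0 of 6 at 1 FPKM or more in both, and 50.3 to 84.96 FPKM in wild-type MII libraries, with 2 of 6. The leukocyte gene Ptprc was at 0 in both groups. The 13 granulosa and cumulus markers summed to 4.52 to 4.79 FPKM in labelled Btg4-/- MII libraries, with 1 of 13 at 1 FPKM or more in both, against 7.41 to 11.8 FPKM and 2 of 13 in wild type. The part of either list in the differences was not tested.

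Among the 7 start-codon factors, 3 were higher, 2 were lower and 2 did not pass. Eif1ax (chromosome X, 155810126 to 155823631), the X-linked gene of the scanning factor eIF1A, had 483 and 567 FPKM in labelled Btg4-/- MII oocytes, against 59.8 and 35.9 FPKM in wild type (log2 change 3.47, SE 0.20, adjusted p = 1.89e-08). Eif1b had 1844 and 1714 FPKM in labelled Btg4-/- MII oocytes, against 671 and 661 FPKM in wild type (log2 change 1.42, SE 0.16, adjusted p = 6.83e-06). The labelled Btg4-/- libraries lay above both wild-type libraries for both genes, and Eif1ad, a gene with an eIF1A-like domain, was the other higher one (log2 change 1.52, SE 0.24, adjusted p = 0.00016). Eif5b had 0.874 and 1.11 FPKM in labelled Btg4-/- MII oocytes, against 14.9 and 16.3 FPKM in wild type (log2 change -3.06, SE 0.21, adjusted p = 9.13e-08). Eif5 had 38.8 and 47.8 FPKM in labelled Btg4-/- MII oocytes, against 130.4 and 175 FPKM in wild type (log2 change -1.78, SE 0.21, adjusted p = 1.05e-05). These groups did not overlap either, and here wild type was the higher one.

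Of the 13 tested genes of eIF2, its exchange factor, its kinases and related factors, 4 were higher, 5 lower and 4 did not pass. Eif2s2 had the lowest change of all factors on log2(FPKM + 1), a scale that understates the change of low mRNAs, at 108 and 89.5 FPKM in labelled Btg4-/- MII oocytes, against 1021 and 1021 FPKM in wild type, a 10.3-fold lower mean (log2 change -3.36, SE 0.14, adjusted p = 1.42e-09). A partner in the same complex went the other way. Eif2s1, which encodes the alpha subunit that the stress kinases phosphorylate, had 55.7 and 60.6 FPKM in labelled Btg4-/- MII oocytes, against 12.98 and 11.002 FPKM in wild type (log2 change 2.19, SE 0.17, adjusted p = 2.82e-07), and Eif2s3x, the gamma subunit, did not pass (log2 change -0.41, adjusted p = 0.197). eIF2B, the exchange factor of 5 subunits, was split in the same way. Eif2b1, its alpha subunit, had 15.6 and 12.5 FPKM in labelled Btg4-/- MII oocytes, against 83.2 and 79.4 FPKM in wild type (log2 change -2.46, SE 0.15, adjusted p = 3.31e-08). Eif2b4, its delta subunit, had 59.3 and 80.2 FPKM in labelled Btg4-/- MII oocytes, against 10.1 and 15.9 FPKM in wild type (log2 change 2.36, SE 0.23, adjusted p = 2.08e-06). Eif2b5 was higher (log2 change 1.35, adjusted p = 0.0216), and Eif2b2 and Eif2b3 did not pass. All 3 tested eIF2 alpha kinases that respond to endoplasmic reticulum stress, haem lack or amino acid lack were lower, with Eif2ak3 at 0.481 and 0.375 FPKM in labelled Btg4-/- MII oocytes, against 5.36 and 8.66 FPKM in wild type (log2 change -2.46, SE 0.25, adjusted p = 3.34e-06), Eif2ak1 (log2 change -0.85, adjusted p = 0.0043) and Eif2ak4 (log2 change -0.87, adjusted p = 0.0176).

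Of the 14 eIF3 genes, 7 were higher, 2 were lower and 5 did not pass. Eif3m (chromosome 2, 104839813 to 104857184), a subunit of the octameric core of eIF3, differed most of all factors, at 159.5 and 198 FPKM in labelled Btg4-/- MII oocytes, against 3.21 and 8.94 FPKM in wild type, a 29.4-fold higher mean (log2 change 4.79, SE 0.33, adjusted p = 1.18e-07). Eif3g had 79.7 and 96.9 FPKM in labelled Btg4-/- MII oocytes, against 10.2 and 6.27 FPKM in wild type (log2 change 3.30, SE 0.38, adjusted p = 1.07e-05). The other higher subunits were Eif3b, Eif3l, Eif3k, Eif3h and Eif3e, with log2 changes of 1.78, 1.65, 1.10, 1.01 and 0.86, of which Eif3e did not pass with quantile normalization (0.43, adjusted p = 0.251). Eif3a, the largest subunit and a scaffold of the complex, was lower at 0.356 and 0.809 FPKM in labelled Btg4-/- MII oocytes, against 5.21 and 6.85 FPKM in wild type (log2 change -2.16, SE 0.34, adjusted p = 0.000166), and so was Eif3i, at 160.4 and 142 FPKM in labelled Btg4-/- MII oocytes, against 219.6 and 223 FPKM in wild type (log2 change -0.55, SE 0.14, adjusted p = 0.004). Subunits of the one complex therefore lay on both sides of wild type.

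The 11 cap-binding and helicase genes had 4 higher, 6 lower and 1 that did not pass. Eif4a2, the second cytoplasmic eIF4A helicase, had 11.7 and 10.03 FPKM in labelled Btg4-/- MII oocytes, against 107 and 121 FPKM in wild type, a 10.5-fold lower mean (log2 change -3.28, SE 0.14, adjusted p = 2.64e-09). Eif4a1 had 286 and 286 FPKM in labelled Btg4-/- MII oocytes, against 999 and 1058 FPKM in wild type (log2 change -1.84, SE 0.089, adjusted p = 5.69e-09). All 3 scaffold genes were lower, Eif4g1 with 2.75 and 2.48 FPKM in labelled Btg4-/- MII oocytes, against 10.4 and 11.4 FPKM in wild type (log2 change -1.72, SE 0.25, adjusted p = 7.2e-05), Eif4g3 (log2 change -1.81, SE 0.25, adjusted p = 5.11e-05) and Eif4g2 (log2 change -1.37, SE 0.23, adjusted p = 0.000213). Eif4e itself had 114 and 117 FPKM in labelled Btg4-/- MII oocytes, against 43.8 and 47.5 FPKM in wild type (log2 change 1.32, SE 0.11, adjusted p = 6.2e-07), and its repressive relative Eif4e2 was higher as well (log2 change 2.34, SE 0.25, adjusted p = 5.97e-06), while the third family member, Eif4e3, was lower (log2 change -0.64, SE 0.11, adjusted p = 0.000277). Eif4h (79.1 and 76.4 FPKM in labelled Btg4-/- MII oocytes, against 13.6 and 8.14 FPKM in wild type; log2 change 2.77, SE 0.19, adjusted p = 1.2e-07) and Eif4a3, the helicase of the exon junction complex (log2 change 1.30, SE 0.15, adjusted p = 1.09e-05), were higher. Thus the cap-binding protein gene stood above wild type and the scaffold and both cytoplasmic helicase genes stood below it in the same libraries. Of the inhibitors that bind eIF4E, Eif4ebp2 was lower (1.31 and 1.15 FPKM in labelled Btg4-/- MII oocytes, against 4.60 and 8.43 FPKM in wild type; log2 change -1.71, SE 0.39, adjusted p = 0.00237). Eif4ebp1, at 5.53 and 4.21 FPKM in labelled Btg4-/- MII oocytes, against 0.944 and 1.94 FPKM in wild type, did not pass (log2 change 1.29, adjusted p = 0.0567), but passed as higher with a pseudocount of 0.1 (adjusted p = 0.0432) and with a filter at 5 FPKM (adjusted p = 0.0443).

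Of the 7 tested elongation genes, grouped by symbol and so including Eef1e1 and Eef2k, 5 were higher, 0 lower and 2 did not pass. Eef1a1 (chromosome 9, 78326260 to 78329531) had 916 and 1017 FPKM in labelled Btg4-/- MII oocytes, against 156 and 160.4 FPKM in wild type, a 6.10-fold higher mean (log2 change 2.60, SE 0.091, adjusted p = 5.83e-10). The nucleotide exchange subunit gene Eef1d had 143 and 152 FPKM in labelled Btg4-/- MII oocytes, against 18.4 and 16.6 FPKM in wild type (log2 change 3.01, SE 0.19, adjusted p = 4.92e-08). Eef1e1 had 447 and 409 FPKM in labelled Btg4-/- MII oocytes, against 80.5 and 87.4 FPKM in wild type (log2 change 2.34, SE 0.11, adjusted p = 5.21e-09). Eef2, the translocation factor, had 66.999 and 63.02 FPKM in labelled Btg4-/- MII oocytes, against 28.7 and 17.7 FPKM in wild type (log2 change 1.49, SE 0.18, adjusted p = 1.5e-05), and Eef1b2, the catalytic exchange subunit, was the fifth (log2 change 1.23, SE 0.17, adjusted p = 6.04e-05). For these 5 genes each labelled Btg4-/- library lay above both wild-type libraries. Eef1g and Eef2k did not pass (0.82 and 0.26 on the log2 scale). Eif6 had 887 and 792 FPKM in labelled Btg4-/- MII oocytes, against 62.3 and 64.7 FPKM in wild type, a 13.2-fold higher mean (log2 change 3.70, SE 0.13, adjusted p = 5.41e-10), and Eif5a was lower, at 786 and 688 FPKM in labelled Btg4-/- MII oocytes, against 1068 and 1227 FPKM in wild type (log2 change -0.64, SE 0.11, adjusted p = 0.000368).

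**Figure D2:**
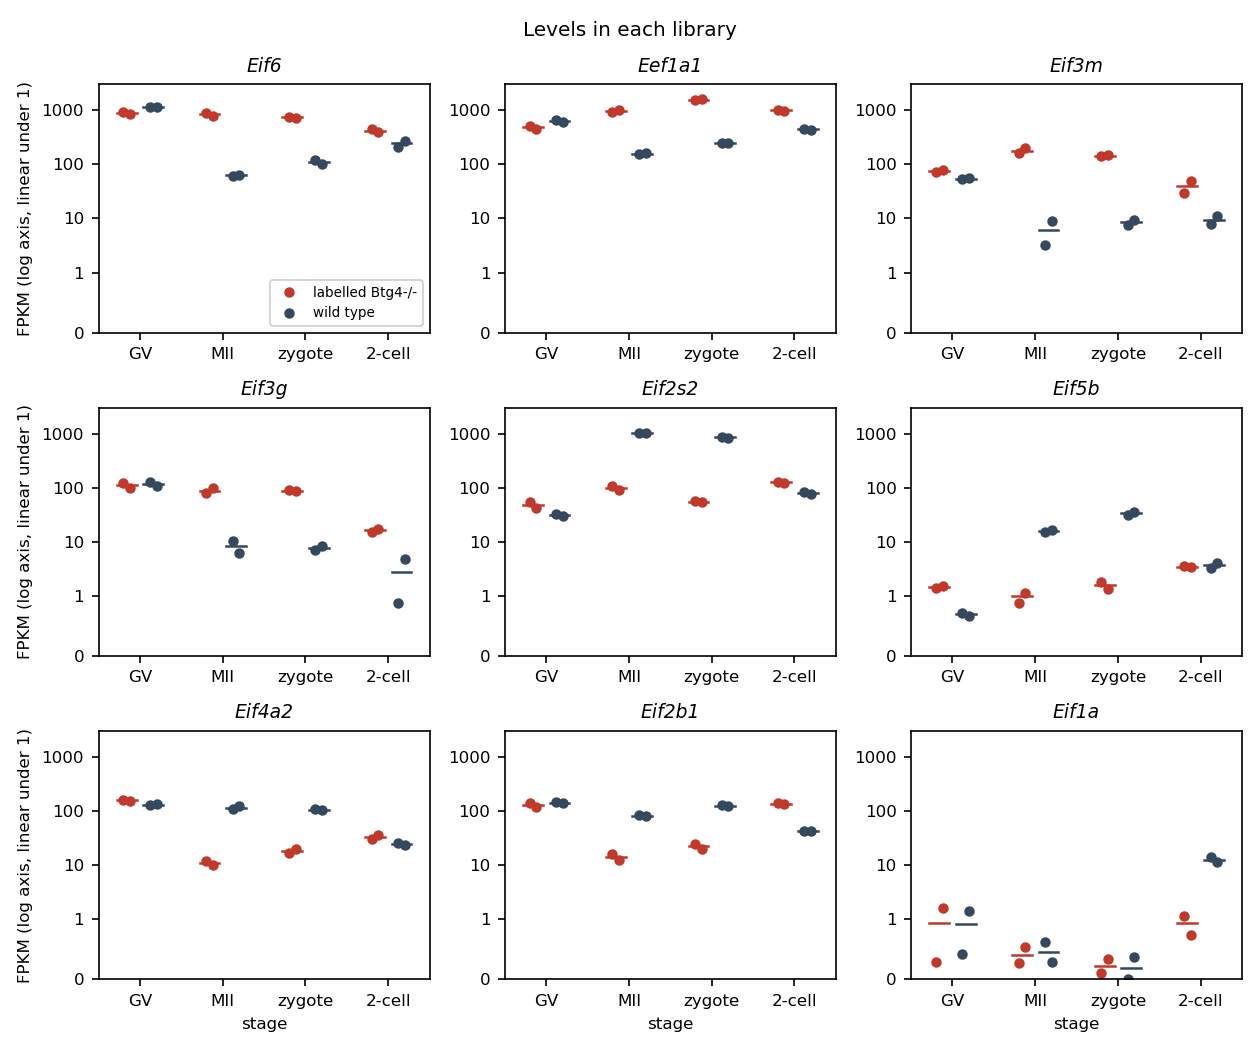
FPKM in each library (points) and group means (bars) of 9 factor genes at 4 stages, labelled Btg4-/- left of wild type, on an axis that is logarithmic above 1 FPKM and linear below it, with 2 libraries per group. Eif6, Eef1a1, Eif3m and Eif3g stand above wild type at MII and in zygotes, Eif2s2, Eif5b, Eif4a2 and Eif2b1 stand below it there, and Eif1a stands below it at the 2-cell stage.

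The maturation step itself was then compared between genotypes. Within labelled Btg4-/- oocytes, 17 factors rose and 11 fell at MII against GV, where 27.3% of all genes rose and 18.1% fell. Under median-of-ratios scaling, which moves the median of all genes from 0.14 to -0.03 on the log2 scale, the split was 13 and 21. The split of all genes moved the same way, from 3362 and 2223 to 2594 and 3085. The difference between genotypes in this step passed as positive for 25 factors and as negative for 12, where 26.5% and 16% of all genes did, and the median difference was 0.77 for the factors and 0.22 for all genes. Quantile normalization, which moves the median of all genes to 0, gave 20 positive and 18 negative, and median-of-ratios scaling, which moves it to 0.02, gave 22 and 17. Over all genes the split moved from 3263 positive and 1967 negative to 2457 and 2592, and to 2622 and 2511. The factors' negative counts of 18 and 17 each include Eif2ak2, an eIF2 alpha kinase gene that reached the 1 FPKM minimum only under these scalings. Its highest unscaled group mean was 0.986 FPKM, in wild-type MII oocytes, a group of this same comparison. Its negative difference is therefore a description. By role, positive and negative differences numbered 6 and 0 of 7 elongation genes, 6 and 1 of 14 eIF3 genes, and 5 and 6 of 11 cap-binding and helicase genes.

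The called factors followed several courses. Eif6 had 887 and 792 FPKM at MII and 931 and 849 FPKM at GV in labelled Btg4-/- oocytes, which did not pass (log2 change -0.09, adjusted p = 0.645), against its 18.1-fold fall in wild type, and the difference between the steps was 4.08 (adjusted p = 1.92e-08). Eif3g (-0.33 in labelled Btg4-/- oocytes and -3.69 in wild type, difference 3.36), Eif4h (-0.27 and -3.48, difference 3.21) and Eef1d (0.13 and -2.68, difference 2.81) had the same course. Under median-of-ratios scaling Eif6 and Eif4h passed as lower at MII in labelled Btg4-/- oocytes too (-0.51 and -0.70 on the log2 scale). Eif3m and Eef1a1 fell in wild type and rose in labelled Btg4-/- oocytes: Eif3m had 159.5 and 198 FPKM at MII, against 72.1 and 79.4 FPKM at GV (log2 change 1.22, adjusted p = 0.00901; 0.80 and adjusted p = 0.0587 under median-of-ratios scaling), and Eef1a1 had 916 and 1017 FPKM, against 509.9 and 455 FPKM (log2 change 1.001, adjusted p = 1.42e-06). Eif1b rose in both genotypes and more in labelled Btg4-/- oocytes, to 1844 and 1714 FPKM, against 119.96 and 88.6 FPKM at GV (4.09, against 1.91 in wild type, difference 2.19, adjusted p = 6.54e-06).

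Other factors rose in wild type and rose less or not at all in labelled Btg4-/- oocytes. Eif2s2 rose by 1.05 on the log2 scale in labelled Btg4-/- oocytes and by 4.99 in wild type, a difference of -3.94 (adjusted p = 3.02e-08). Eif5b changed by -0.30 in labelled Btg4-/- oocytes without passing and rose by 3.29 in wild type (difference -3.60, adjusted p = 1.16e-06). Eif4a1, Eif4g1 and Eif4g3 did not pass in labelled Btg4-/- oocytes (0.05, 0.39 and 0.03) and rose in wild type (1.49, 1.79 and 1.33). Under median-of-ratios scaling Eif5b and Eif4a1 passed as lower in labelled Btg4-/- oocytes (-0.56 and -0.37). A further course is a fall in labelled Btg4-/- oocytes that wild type did not share or shared in part. Eif4a2 had 11.7 and 10.03 FPKM at MII, against 160.03 and 153 FPKM at GV, in labelled Btg4-/- oocytes (log2 change -3.74, adjusted p = 6.46e-10), and did not pass in wild type (-0.19). Eif2b1 had 15.6 and 12.5 FPKM at MII, against 139.8 and 116 FPKM at GV (log2 change -3.10, adjusted p = 4.15e-09), with -0.78 in wild type, and Eif3a had 0.356 and 0.809 FPKM, against 6.05 and 7.23 FPKM (log2 change -2.28, adjusted p = 0.000121), with 0.02 in wild type, which did not pass. The difference in step was -3.55 for Eif4a2, -2.32 for Eif2b1 and -2.31 for Eif3a (adjusted p = 8.4e-08, 2.5e-06 and 0.00206). A last set fell in both genotypes. Eif3l had log2 changes of -2.55 in labelled Btg4-/- oocytes and -4.51 in wild type, with a difference that passed (adjusted p = 0.00522). Eif2b2 had -2.21 and -2.88, with a difference that did not (adjusted p = 0.289).

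**Figure D3:**
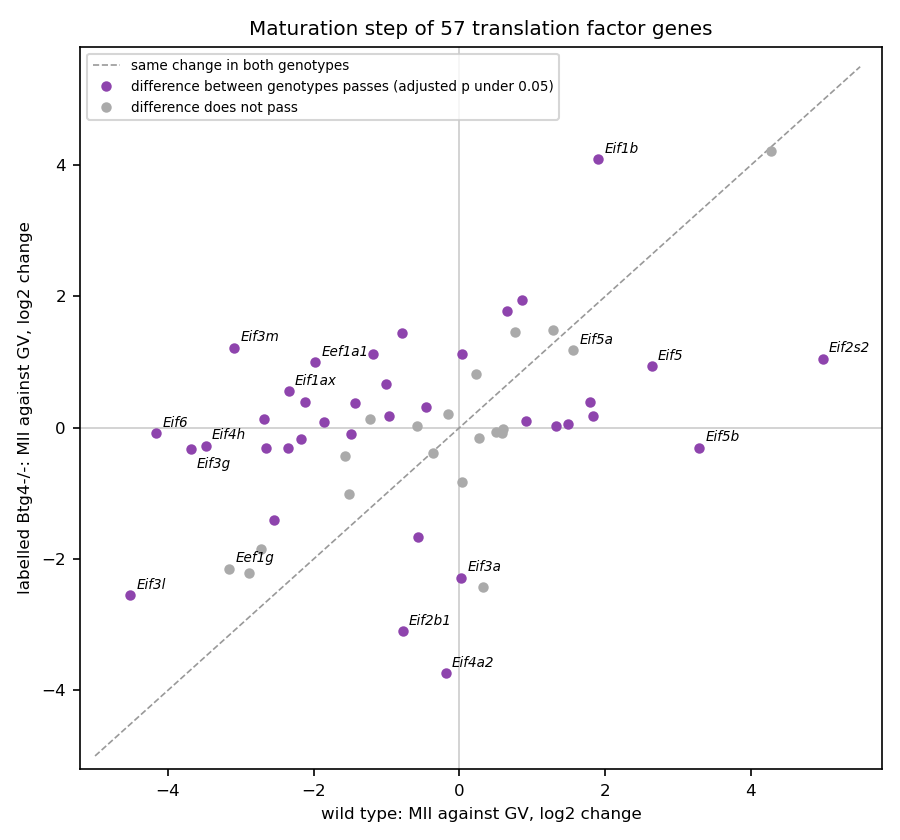
Log2 change from GV to MII of the 57 tested factors in labelled Btg4-/- oocytes (vertical axis) and in wild type (horizontal axis), which share no library; purple points have a step that differs between genotypes at an adjusted p under 0.05. Eif6 lies at -0.09 and -4.16, and Eif2s2 at 1.05 and 4.99.

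In zygotes most elongation genes and Eif6 again stood above wild type, and Eif2s2, Eif4a1 and Eif4a2 below it. Of 57 factors, 23 were higher and 15 lower in labelled Btg4-/- zygotes, where 24.4% and 23.3% of all genes were, with medians of 0.46 for the factors and 0.01 for all genes. Again 5 of 7 elongation genes were higher and 0 lower, 6 of 14 eIF3 genes were higher and 2 lower (Eif3a and the uncertain Eif3j2), and 4 of 11 cap-binding and helicase genes were higher and 6 lower. Eif3m (143 and 147 FPKM in labelled Btg4-/- zygotes, against 7.68 and 9.32 FPKM in wild type; log2 change 3.94, SE 0.33, adjusted p = 9.37e-07) and Eif3g (88.5 and 87.04 FPKM in labelled Btg4-/- zygotes, against 6.95 and 8.37 FPKM in wild type; log2 change 3.36, SE 0.38, adjusted p = 1.24e-05) had the largest log2 changes among the higher genes. Eef1e1 had 359 and 359 FPKM in labelled Btg4-/- zygotes, against 41.6 and 41.2 FPKM in wild type (log2 change 3.08, SE 0.11, adjusted p = 1.03e-09). Eif6 had 758 and 722 FPKM in labelled Btg4-/- zygotes, against 119.97 and 103 FPKM in wild type (log2 change 2.72, SE 0.13, adjusted p = 8.6e-09). Eef1a1 had 1554 and 1592 FPKM in labelled Btg4-/- zygotes, against 249 and 253 FPKM in wild type, the highest of its levels in the 20 libraries being those of the labelled Btg4-/- zygotes (log2 change 2.64, SE 0.091, adjusted p = 6.6e-10). In each of these 5 genes the labelled Btg4-/- libraries were the higher ones, with no overlap. Eif1b was higher (log2 change 1.38, SE 0.16, adjusted p = 1.16e-05), and Eif3i and Eif4ebp1 did not pass (0.23 and 0.55).

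Of the lower genes in zygotes, Eif2s2 had the lowest change on log2(FPKM + 1), at 56.1 and 53.4 FPKM in labelled Btg4-/- zygotes, against 874 and 822 FPKM in wild type, a 15.5-fold lower mean (log2 change -3.93, SE 0.14, adjusted p = 6.55e-10). Eif5b had 1.78 and 1.34 FPKM in labelled Btg4-/- zygotes, against 31.6 and 35.3 FPKM in wild type (log2 change -3.75, SE 0.21, adjusted p = 3.1e-08). Eif3a had 0.793 and 1.31 FPKM in labelled Btg4-/- zygotes, against 8.90 and 14.6 FPKM in wild type (log2 change -2.61, SE 0.34, adjusted p = 4.41e-05). Eif4a2 had 16.3 and 19.7 FPKM in labelled Btg4-/- zygotes, against 107 and 102 FPKM in wild type (log2 change -2.48, SE 0.14, adjusted p = 3.98e-08). The groups did not overlap in any of these. Eif4a1 was lower as well (log2 change -1.005, SE 0.089, adjusted p = 1.43e-06). Eif5a was lower (log2 change -0.33, adjusted p = 0.028), a call lost in a fit of the 4 zygote libraries (adjusted p = 0.164) and without either labelled Btg4-/- library (0.051 and 0.149) or wild-type library 1 (0.25). Eif3j1 and Eif3j2 summed to 13.6 and 19.6 FPKM in labelled Btg4-/- zygotes, against 116 and 164 FPKM in wild type.

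The step from MII to zygote moved fewer factors. In labelled Btg4-/- samples, 9 rose and 6 fell, where 10.3% and 5.38% of all genes did. In wild type, 20 rose and 7 fell, where 20.5% and 8% did. Eef2k rose in both, to 92.6 and 89.7 FPKM in labelled Btg4-/- zygotes, against 35.8 and 41.2 FPKM at MII (log2 change 1.23, adjusted p = 0.00142), and to 100.2 and 98.7 FPKM in wild-type zygotes, against 33.9 and 30.2 FPKM at MII (log2 change 1.61, adjusted p = 9.38e-05). Eef2, its substrate, rose in both as well (1.02 in labelled Btg4-/- samples and 1.52 in wild type), as did Eif4b, a cofactor of eIF4A (0.93 and 1.53), and Eif5a and Eif1b fell in both (-0.63 and -0.94, and -0.82 and -0.79). Under median-of-ratios scaling the splits were 7 and 10 in labelled Btg4-/- samples and 15 and 10 in wild type, where the median of all genes moved from 0.22 to 0.05. Quantile normalization gave 9 and 2 in labelled Btg4-/- samples and 15 and 9 in wild type. It ended the call of Eif5a in labelled Btg4-/- samples (-0.20, adjusted p = 0.276). The splits of all genes moved as well. Of all genes called in labelled Btg4-/- samples, 65.8% rose without scaling, 41.9% under median-of-ratios scaling and 60.9% under quantile normalization. In wild type these shares were 71.9%, 51.9% and 51.9%. In labelled Btg4-/- samples, leaving out MII library 2 or zygote library 2 left 5 and 4 that rose, and leaving out any of the 4 libraries left 3 that fell. Fits on the libraries of the step alone left 3 and 2 in labelled Btg4-/- samples, beside 365 and 294 of all genes. In wild type they left 9 and 1, beside 767 and 394.

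At the 2-cell stage eIF3 subunits lay on both sides of wild type in equal number, and the inhibitors of eIF4E were lower. In labelled Btg4-/- 2-cell embryos 21 factors were higher and 18 lower, where 22.6% and 26.4% of all genes were, and the medians were both near 0 (0.05 for the factors and -0.05 for all genes). Of 14 eIF3 genes 5 were higher and 5 lower (6 and 5 with quantile normalization), and both tested 4E-binding protein genes, Eif4ebp1 and Eif4ebp2, were lower. Of the 7 elongation genes 4 were higher and 1 lower. Among all higher factors, Eef1e1 of the multi-tRNA synthetase complex differed most. It had 463 and 457 FPKM in labelled Btg4-/- 2-cell embryos, against 37.1 and 44.8 FPKM in wild type, an 11.2-fold higher mean (log2 change 3.46, SE 0.11, adjusted p = 3.85e-10). Eif3e, a core eIF3 subunit, had 62.6 and 82.9 FPKM in labelled Btg4-/- 2-cell embryos, against 4.96 and 12.9 FPKM in wild type (log2 change 3.002, SE 0.28, adjusted p = 2.14e-06). Eif1b had 882 and 733 FPKM in labelled Btg4-/- 2-cell embryos, against 122 and 103 FPKM in wild type (log2 change 2.83, SE 0.16, adjusted p = 2.06e-08). Eif3g (15.4 and 17.4 FPKM in labelled Btg4-/- 2-cell embryos, against 0.880 and 4.71 FPKM in wild type; log2 change 2.41, SE 0.38, adjusted p = 0.000199) and Eif3m (29.7 and 49.8 FPKM in labelled Btg4-/- 2-cell embryos, against 7.96 and 11.1 FPKM in wild type; log2 change 1.92, SE 0.33, adjusted p = 0.000393) were still above wild type. The groups did not overlap for any of the 5, which such calls themselves make likely.

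Among the 18 counted as lower, Eif1a, the autosomal copy of the eIF1A gene, had 1.15 and 0.728 FPKM in labelled Btg4-/- 2-cell embryos, against 13.8 and 11.2 FPKM in wild type. It entered the test through wild-type 2-cell embryos alone, since its mean was under 1 FPKM in each of the other 7 groups, so these values are a description. Wild-type zygotes had 0 and 0.362 FPKM. Its X-linked copy Eif1ax had 242 and 223 FPKM in labelled Btg4-/- 2-cell embryos, against 81.7 and 80.9 FPKM in wild type, a 2.85-fold higher mean (adjusted p = 3.96e-05). The copies thus lay on opposite sides of wild type. Eif3c, a core subunit, had 0.474 and 1.53 FPKM in labelled Btg4-/- 2-cell embryos, against 15.6 and 7.54 FPKM in wild type (log2 change -2.62, SE 0.43, adjusted p = 0.000272). Eif3a had 1.57 and 1.21 FPKM in labelled Btg4-/- 2-cell embryos, against 11.9 and 15.3 FPKM in wild type (log2 change -2.60, SE 0.34, adjusted p = 4.51e-05). Eif3f had 5.02 and 2.86 FPKM in labelled Btg4-/- 2-cell embryos, against 15.3 and 30.1 FPKM in wild type (log2 change -2.22, SE 0.36, adjusted p = 0.00024), with every labelled Btg4-/- library below both wild-type libraries. Eif4ebp1 had 1.17 and 2.55 FPKM in labelled Btg4-/- 2-cell embryos, against 3.92 and 19.9 FPKM in wild type (log2 change -1.87, SE 0.53, adjusted p = 0.0103). Without wild-type library 2, its higher one, the log2 change was -0.82 (adjusted p = 0.133), and without labelled Btg4-/- library 1 it was -1.51 (adjusted p = 0.0858).

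For some of the most abundant factors the calls at this stage changed with quantile normalization. Eef1a1 had 1034 and 990.1 FPKM in labelled Btg4-/- 2-cell embryos, against 449 and 436 FPKM in wild type (log2 change 1.19, SE 0.091, adjusted p = 3.59e-07). Eif2s2 had 127 and 123 FPKM in labelled Btg4-/- 2-cell embryos, against 84.7 and 76.8 FPKM in wild type (log2 change 0.63, SE 0.14, adjusted p = 0.00189). Eif4a1 had 378 and 370.5 FPKM in labelled Btg4-/- 2-cell embryos, against 254 and 264 FPKM in wild type (log2 change 0.53, SE 0.089, adjusted p = 0.000308). Eif5a had 1163 and 1209.7 FPKM in labelled Btg4-/- 2-cell embryos, against 1138 and 1149.9 FPKM in wild type and did not pass (log2 change 0.05, adjusted p = 0.742). Quantile normalization ended the first 2 of these calls (0.14 and 0.17, adjusted p = 0.241 and 0.295) and turned Eif4a1 and Eif5a to lower (-0.38 and -0.98). It also turned Eif1 from higher (0.32) to lower (-0.70). Its split of calls was 15 higher and 20 lower. The split of all genes moved from 2785 and 3252 to 2984 and 2949. Eif3i was higher (log2 change 1.31, SE 0.14, adjusted p = 5.08e-06). Fitted by themselves, the 2-cell libraries called 13 factors higher and 9 lower, beside 1640 and 1795 of all genes. That fit lost Eif3g (adjusted p = 0.0746) and Eif4ebp1 (0.205). Summed levels of 6 markers of 2-cell embryos were 5.05 to 7.39 FPKM in labelled Btg4-/- libraries, with 2 of 6 at 1 FPKM or more in both, against 71.7 to 94.9 FPKM and 4 of 6 in wild type, with Tcstv1 and Tcstv3 at 0 in both groups. The 13 granulosa and cumulus markers summed to 5.51 to 6.01 FPKM with 2 at 1 FPKM or more, against 23.5 to 31.3 FPKM and also 2. The part of these in the differences was not tested.

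Between the zygote and the 2-cell stage, 12 factors rose and 27 fell in labelled Btg4-/- embryos, where 18.3% and 28.2% of all genes did. In wild type 17 rose and 25 fell, where 27.1% and 30.2% did. The difference between genotypes in this step was positive for 15 and negative for 20, where 22.2% and 25.9% of all genes passed. Eif2s2 was one of them: it had 127 and 123 FPKM in labelled Btg4-/- 2-cell embryos, against 56.1 and 53.4 FPKM in labelled Btg4-/- zygotes (log2 change 1.18, adjusted p = 1.39e-05), and 84.7 and 76.8 FPKM in wild-type 2-cell embryos, against 874 and 822 FPKM in wild-type zygotes (log2 change -3.38, adjusted p = 1.24e-09), a difference of 4.56 (adjusted p = 5.19e-09). Eif2b1 rose by 2.59 in labelled Btg4-/- embryos and fell by 1.52 in wild type on the log2 scale (difference 4.11, adjusted p = 2.38e-08). Of the wild-type 2-cell embryo's rising factors, Eif4g2, a scaffold that does not bind eIF4E, reached 43.7 and 53.04 FPKM, against 5.53 and 6.28 FPKM in zygotes (log2 change 2.83, adjusted p = 3.25e-07), and rose in labelled Btg4-/- embryos too, to 19.8 and 19.8 FPKM, against 2.48 and 3.89 FPKM (log2 change 2.33, adjusted p = 3.2e-06). Its step did not differ beyond the threshold (adjusted p = 0.218), but did with quantile normalization (-0.84, adjusted p = 0.0439).

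Transcript length went with these differences. Over the 56 tested factors with a transcript, the log2 change of labelled Btg4-/- against wild type at MII had a Spearman rho of -0.39 with transcript length, and over all 11016 genes it had -0.36. The factors that were lower had a median transcript of 4325 bases and the higher ones 1983.5 bases, beside 3735 and 2102 bases over all genes called. Wild-type maturation had the opposite sign (0.33 for the factors and 0.30 for all genes). The points share their libraries, genes are not independent replicates, and the part of length in these results was not tested.

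The Erk experiment has 1 library per group, so its differences have no replicate check, and genes past a 2-fold difference on log2(FPKM + 1) are counted without a test, among 54 factors and 11404 genes with at least 1 FPKM in at least 1 library. Mapk3, the ERK1 gene, had 52.3 FPKM in labelled Erk-/- GV oocytes, against 333 FPKM in wild type, and 34.3 FPKM in labelled Erk-/- MII oocytes, against 25.7 FPKM in wild type. In labelled Erk-/- GV oocytes 2 factors were higher and 7 lower, where 18.7% and 23.5% of all genes were. In labelled Erk-/- MII oocytes 23 were higher and 3 lower, where 30.7% and 8.08% were, in a comparison with the wild-type MII library that had the fewest detected genes. With median-of-ratios scaling the splits were 4 and 6 at GV and 16 and 7 at MII. This scaling divides the wild-type MII library by 0.694 and the labelled Erk-/- MII library by 1.005, so it shifts all genes. The splits of all genes under it were not counted, so the move cannot be read as particular to the factors. The median difference was -0.13 for the factors and -0.01 for all genes at GV, and 0.46 and 0.26 at MII. The 13 granulosa and cumulus markers summed to 12.7 FPKM in labelled Erk-/- MII oocytes and 24.9 FPKM in wild type, with 2 of 13 at 1 FPKM or more in each, and their part in the result was not tested.

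At GV the 2 higher factors were Eef1e1, with 11.7 FPKM in labelled Erk-/- GV oocytes and listed at 0 in wild type, and the eIF2B beta gene Eif2b2 (44.5 FPKM in labelled Erk-/- GV oocytes, against 8.88 FPKM in wild type). Eif3b, an RNA-binding core subunit of eIF3, had the lowest log2 difference on log2(FPKM + 1) (-2.49; 9.30 FPKM in labelled Erk-/- GV oocytes, against 56.8 FPKM in wild type), next to Eif2a, which can deliver initiator tRNA without eIF2 (-2.46; 1.64 FPKM in labelled Erk-/- GV oocytes, against 13.5 FPKM in wild type). At MII, Eif3g had 9.05 FPKM in labelled Erk-/- MII oocytes, against 0.197 FPKM in wild type, Eif4h had 10.2 FPKM in labelled Erk-/- MII oocytes, against 0.985 FPKM in wild type, and Eef1d had 16.03 FPKM in labelled Erk-/- MII oocytes, against 1.61 FPKM in wild type. Eif6 had 49.1 FPKM in labelled Erk-/- MII oocytes, against 14.7 FPKM in wild type, and Eif2s2 had 47.7 FPKM in labelled Erk-/- MII oocytes, against 12.5 FPKM in wild type. These 5 mRNAs were low in both MII libraries beside GV and lower still in wild type. Eef1a1 had 61.1 FPKM in labelled Erk-/- MII oocytes, against 35.7 FPKM in wild type, which is within 2-fold. Between MII and GV, 11 factors were higher and 29 lower in labelled Erk-/- oocytes, where 23.9% and 33.4% of all genes were, and 8 were higher and 33 lower in wild type, where 20.4% and 46.9% were. With median-of-ratios scaling, which divides the wild-type MII library by 0.694 and the wild-type GV library by 1.236, the wild-type split was 15 and 30. The split of all genes under it was not counted.

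Wild-type maturation was thus measured in 2 experiments that share no library, and they differed for part of the factors. Of the 29 that fell in the Btg4 experiment, all had a value in the Erk experiment, where 22 were past 2-fold lower (75.9%), 5 past 2-fold higher and 2 within 2-fold. Of all 3170 genes that fell and had a value, 58% were past 2-fold lower and 20.2% past 2-fold higher. Of the 16 that rose, 15 had a value, where 1 was past 2-fold higher (Eif1), 5 past 2-fold lower and 9 within 2-fold. Of all 3013 genes that rose and had a value, 19.5% were past 2-fold higher and 41.2% past 2-fold lower. Falls shared by both include Eif6 (log2 difference -3.64), Eif3g (-7.09), Eif4h (-5.35), Eef1d (-5.60) and Eef1a1 (-3.90). The large rise of Eif2s2 was not shared: the Erk experiment had 12.5 FPKM in wild-type MII oocytes, against 158 FPKM in wild-type GV oocytes, next to 1021 and 1021 FPKM at MII and 32.9 and 29.6 FPKM at GV in the Btg4 experiment. Eif5 had 25.6 FPKM in wild-type MII oocytes, against 70.5 FPKM in wild-type GV oocytes, and Eif5b had 31.8 FPKM in wild-type MII oocytes, against 45.4 FPKM in wild-type GV oocytes, where the Btg4 experiment's wild-type GV libraries had 0.719 and 0.658 FPKM. Eef1e1, which fell in the Btg4 experiment, had 68.6 FPKM in wild-type MII oocytes of the Erk experiment and was listed at 0 in its wild-type GV oocytes. The levels of the 2 experiments come from separately prepared files, and whether anything but the stage moved them was not tested.

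**Figure D4:**
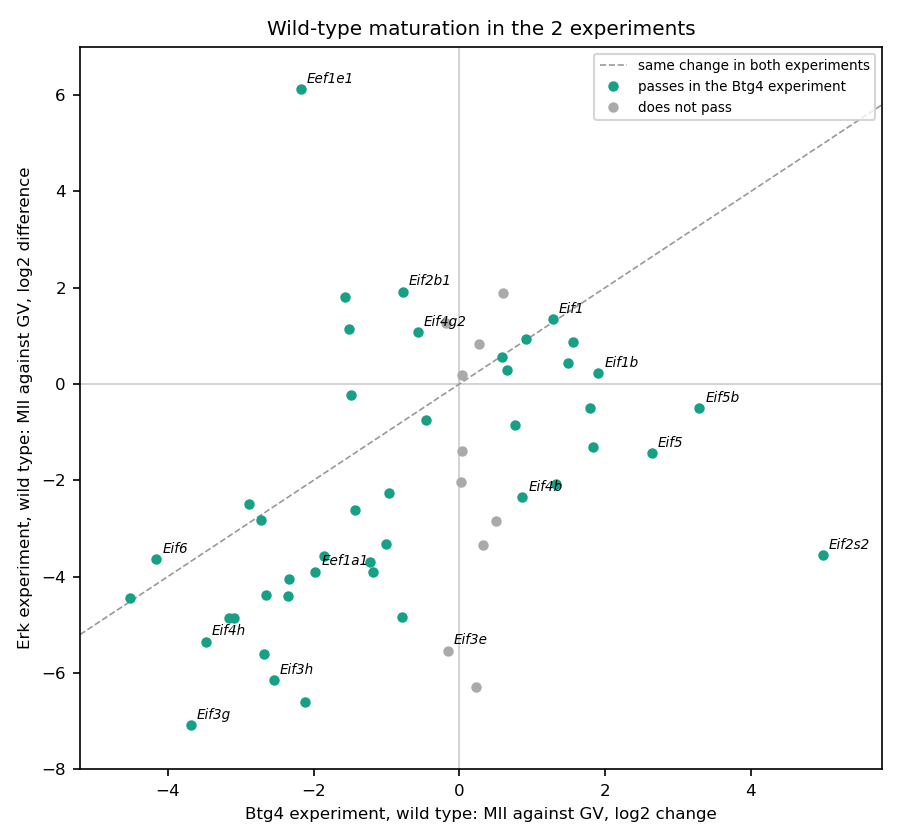
Log2 change from GV to MII of the 54 factors compared in wild type of both experiments, with the Btg4 experiment (2 libraries per stage) on the horizontal axis and the Erk experiment (1 library per stage) on the vertical axis; green points pass in the Btg4 experiment. Most genes left of 0 lie below 0, and Eif2s2 lies at 4.99 and -3.56.

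Other genes of translation and its control were read from a list of 43, of which 41 are in the files and 39 were tested. At MII 13 were higher and 9 lower in labelled Btg4-/- oocytes, where 29.1% and 23.3% of all genes were (median 0.05, beside 0.09 for all genes). At the 2-cell stage 7 were higher and 16 lower, where 22.6% and 26.4% of all genes were (median -0.29, beside -0.05). At GV the counts were 0 and 1 (Akt1s1, log2 change -0.93, adjusted p = 0.00223), where 1.45% and 6.46% of all genes passed, and in zygotes 6 and 6, where 24.4% and 23.3% did. Rheb, the GTPase that activates mTORC1, had 20.1 and 13.9 FPKM in labelled Btg4-/- MII oocytes, against 187 and 208 FPKM in wild type (log2 change -3.49, adjusted p = 1.56e-08). Atf4, the transcription factor of the integrated stress response, had 146 and 125 FPKM in labelled Btg4-/- MII oocytes, against 46.2 and 38.6 FPKM in wild type (log2 change 1.65, adjusted p = 1.54e-06), and Dohh, the second enzyme of eIF5A hypusination, had 8.94 and 5.73 FPKM in labelled Btg4-/- MII oocytes, against 0.740 and 1.45 FPKM in wild type (log2 change 1.99, adjusted p = 0.000243). Both were higher with no overlap between groups. At the 2-cell stage Ppp1r15b, a regulatory subunit of the eIF2 alpha phosphatase, had 1.35 and 1.12 FPKM in labelled Btg4-/- 2-cell embryos, against 20.3 and 36.3 FPKM in wild type (log2 change -3.66, adjusted p = 7.52e-07). Etf1, the release factor eRF1, was higher at MII (1.32) and lower at the 2-cell stage (-1.10, adjusted p = 0.000328).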

How the data were processed

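The study measured mRNA by paired-end RNA-seq in 16 libraries of the Btg4 experiment and 4 of the Erk experiment. The authors deposited one table of gene FPKM per library with a confidence interval for each value. The submitters' processing notes name CASAVA 1.8, TopHat, Cufflinks and the mouse build mm9, and the labels' protocols say that mRNA was purified from total RNA without naming the method, so an effect of poly(A) tail length on the FPKM is not known. No read counts were used here. Groups were taken from the sample titles.

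FPKM of a symbol with several loci were summed (23813 loci, 23309 symbols). limma 3.58.1 in R 4.3.3 was fitted with a trend to log2(FPKM + 1) over all 16 libraries and 8 groups (8 residual degrees of freedom) for the 12311 genes with a group mean of at least 1 FPKM, and p-values were adjusted by Benjamini-Hochberg over all of them. The script was tested on simulated data. The Erk libraries have no replicates and were compared by fold only. Python 3.11.15 with pandas 2.3.3 did the rest. Depth was estimated from the deposited intervals.

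Values in every library were given for the 5 factors with the largest rise and the 5 with the largest fall in each genotype comparison and in wild-type maturation, and for the most abundant factor of each role. The members, role groups, marker lists and the list of other translation genes were chosen with earlier results of these data known. Alternatives were a pseudocount of 0.1, no filter or a filter at 5 FPKM, keeping 1 locus per symbol, median-of-ratios scaling, quantile normalization, separate fits, a replicate block and leaving out each library. Transcripts for the 3' UTR search came from GENCODE M21 on GRCm38 and no coordinates of that build were joined to the mm9 files. Dph6 and Dph7 were not analysed here. Part of the check of the Erk labels is not reported here.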

Additional observations from a re-analysis of the deposited data

Results flagged for a closer look

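The step from GV to MII differed between labelled Btg4-/- and wild-type oocytes by the interaction term of the limma fit, with a positive difference for 25 factors and a negative one for 12. Among those that passed, the lowest and highest differences were -3.94 for Eif2s2, -3.60 for Eif5b and -3.55 for Eif4a2, and 4.31 for Eif3m, 4.08 for Eif6 and 3.36 for Eif3g, on the log2 scale. In all 6 genes the 2 labelled Btg4-/- libraries lay on one side of the wild-type libraries at MII, a description of genes picked by these values.

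The step from zygote to 2-cell differed too, with a positive difference for 15 factors and a negative one for 20. The lowest differences were -3.15 for Eif3f, -2.85 for Eif1a and -2.43 for Eif4e2. That of Eif1a is a description, since the gene entered the test through wild-type 2-cell embryos alone. Eif3f fell in labelled Btg4-/- embryos (log2 change -1.08) and rose in wild type (2.06), and Eif4e2 did the same (-0.70 and 1.73). The falls of both in labelled Btg4-/- embryos did not pass under median-of-ratios scaling (adjusted p = 0.0707 and 0.113) or quantile normalization (0.0764 and 0.116). The highest differences were 4.56 for Eif2s2, 4.11 for Eif2b1 and 5.66 for Eif3j2. The last is uncertain, because reads of Eif3j1 and Eif3j2 are not told apart. Their sum was 25.1 and 35.4 FPKM in labelled Btg4-/- 2-cell embryos and 13.6 and 19.6 FPKM in labelled Btg4-/- zygotes, and 45.7 and 56.6 FPKM in wild-type 2-cell embryos and 116 and 164 FPKM in wild-type zygotes.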

How the results depend on the processing

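Of 328 recomputed counts of factors, 299 stayed within 1.5 times the reported count, and of 864 recomputed log2 changes of named factors 802 kept their direction and side of the threshold, 55 lost the threshold, 5 gained it and 2 reversed. The reversals were Eif4a1 (-0.38) and Eif5a (-0.98) at the 2-cell stage under quantile normalization. With median-of-ratios scaling 7 factors were higher and 2 lower at GV in labelled Btg4-/- oocytes, 21 fell from GV to MII and 10 from MII to zygote in labelled Btg4-/- samples, and past 2-fold 4 were higher in labelled Erk-/- GV oocytes, 7 lower in labelled Erk-/- MII oocytes and 15 higher at MII in wild type of the Erk experiment. Quantile normalization left 2 that fell from MII to zygote in labelled Btg4-/- samples. In the Btg4 experiment the splits of all genes moved under these scalings too, as given above in counts or as the share that rose. In the Erk experiment they were not counted under scaling. Fits on the compared groups alone, which have fewer residual degrees of freedom, called 0 of all genes at GV, and so 0 factors. There 9 factors were higher and 15 lower at an unadjusted p under 0.05 in limma, and the share of all genes was not counted. These fits called 13 factors higher and 9 lower at the 2-cell stage, beside 1640 and 1795 of all genes. From MII to zygote they called 3 rising and 2 falling in labelled Btg4-/- samples, beside 365 and 294 of all genes. In wild type they called 9 rising and 1 falling, beside 767 and 394. Leaving out 1 library gave 0 to 2 higher and 2 to 5 lower at GV, 17 to 19 higher and 9 to 14 lower at the 2-cell stage, and 4 to 7 rising and 3 falling from MII to zygote in labelled Btg4-/- samples. The other comparisons kept counts within 1.5 times when a library was left out. Apart from the constructions named, the cause was not tested.

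With the replicate number as a block, 26 factors were higher and 17 lower at MII, 23 and 15 in zygotes, 21 and 18 at the 2-cell stage and 2 and 6 at GV in labelled Btg4-/- samples, and the differences in step gave 25 and 13 from GV to MII and 15 and 19 from zygote to 2-cell. Of the named factors this changed Eif4ebp1 at MII, which then passed (adjusted p = 0.0251). Replicate differences correlated by -0.01 to 0.123 between groups. These values cannot tell whether samples with the same number share a batch or animals. With 2 libraries a group and few fragments for a low or short mRNA, the precision for such factors is limited.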
